A study of Mus musculus with 36 samples.

Results

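The 9 genes Slc17a6, Slc17a7, Slc17a8, Slc32a1, Gad1, Gad2, Slc6a5, Th and Tph2, which mark what transmitter a neuron uses, were followed in the cerebellum and the hippocampus of mice with and without Pogz. They were picked by name, with no rule on measured values, but with earlier results of these data known. All 9 are among the 24421 genes listed for each tissue. Slc17a6, Slc17a7 and Slc17a8 encode the vesicular glutamate transporters VGLUT2, VGLUT1 and VGLUT3. Gad1 and Gad2 encode the enzymes that make GABA, and Slc32a1 the transporter that loads GABA and glycine into vesicles. Slc6a5 encodes GlyT2, the transporter that takes glycine back into glycinergic terminals. Th encodes tyrosine hydroxylase, the first enzyme of catecholamine synthesis, and Tph2 the tryptophan hydroxylase of brain serotonin neurons.

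A neuron's transmitter is set by a small number of such genes, because a vesicle can only release what its transporter loads and what the cell's enzymes make. In the cerebellar cortex, granule cells release glutamate through Slc17a7, Purkinje cells and molecular layer interneurons release GABA, and Golgi cells release GABA with glycine. In the hippocampus, pyramidal and granule cells release glutamate through Slc17a7, and scattered interneurons release GABA. Slc17a6 is the main vesicular glutamate transporter of thalamus, midbrain and brainstem. The cell bodies that make catecholamines and serotonin lie mostly in midbrain and hindbrain. These genes can therefore also mark tissue of neighbouring regions. Slc17a6 alone does not tell the regions apart, since control cerebella held it as well, at 0.222 to 9.29 CPM.

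Poly(A) RNA from C57Bl/6 mice of 3 genotypes was sequenced. Controls were Pogzfl/fl, with 2 intact alleles and no Cre, the cKO+/- mice were NesCre/+; Pogzfl/+, with 1 intact allele, and the cKO-/- mice were NesCre/+; Pogzfl/fl, with none. Each genotype gave 6 animals, 3 males and 3 females, and each animal gave 1 cerebellar and 1 hippocampal library, which makes 36 libraries. The Nestin promoter drives Cre in the precursors of neurons and glia, so the deletion is not limited to one cell type, and since no control carries Cre, presence of Cre and loss of the first allele cannot be told apart.

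Cerebellar libraries held 21421850 to 32544929 counts and hippocampal libraries 17609321 to 45544188. Pogz itself followed the labels, with 87.2 to 122 CPM in the control cerebella, 64 to 79.2 in cKO+/- and 56.2 to 72.6 in cKO-/-, and with 91.2 to 94.9, 75.5 to 81.8 and 59.6 to 69.4 CPM in the hippocampus. CPM are read counts relative to library size, scaled by TMM factors over all 36 libraries so that both tissues share a scale, and RPKM are these values per kilobase of exon. The values reported as main results do not use the hippocampus of the cKO-/- animal Sample_1160, since the study's methods drop 1 outlier that they do not name, and fits with it were run as alternatives. Animals are named by the number in their label, and all 6 controls, numbered Sample_1129 to Sample_1192, lie in the range from Sample_1120 to Sample_1219 (the control number range below), whereas 7 mutants, 3 cKO+/- and 4 cKO-/-, lie outside it. The ends of that range are mutants, the cKO+/- Sample_1120 and the cKO-/- Sample_1219, so it reaches beyond the controls' own numbers. What the numbers stand for is not stated, so the cerebellar results are also given within that range.

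Some libraries held genes of a region other than the one on their label. Of 18 genes fixed as marks of midbrain and hindbrain neurons, 14 were under 1 CPM in every control cerebellum. This shorter set was chosen after its values were seen and serves only as a description. Its summed level was 0.0671 to 0.301 CPM in the 6 control cerebella, 0.0437 to 0.476 CPM in 7 mutant cerebella, and 2.19 to 14 CPM in the cerebella of Sample_933, Sample_936, Sample_1379, Sample_1385 and Sample_1433, which were singled out after their values were seen. In the hippocampus, the control library of Sample_1129 held 1773 counts of Gabra6, 2566 of Cbln3 and 688 of Pcp2, which are genes of cerebellar granule and Purkinje cells. The control of Sample_1172 and the cKO+/- of Sample_933 held 363 and 216 counts of Pou4f1 in the hippocampus, against 0 to 10 in the other 16 hippocampal libraries.

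The genes lie on 3 chromosomes of GRCm38, the build that the coordinates in the count tables match. Slc6a5 (chr7:49910299-49959493), Slc17a6 (chr7:51621830-51671126), Slc17a7 (chr7:45163921-45176139) and Th (chr7:142892776-142899966) are on chromosome 7. Gad2 (chr2:22622327-22693877), Gad1 (chr2:70562164-70602012) and Slc32a1 (chr2:158610758-158615747) are on chromosome 2, and Slc17a8 (chr10:89574020-89621249) and Tph2 (chr10:115078641-115185022) on chromosome 10. No exon of any of them overlaps an exon of another listed gene. Between 0 and 3.37% of the 43-base stretches of their coding transcripts occur in another gene, the highest share being that of Gad1, whose stretches recur in the pseudogene Gad1-ps.

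The promoters of 4 genes are shown because their genes carry the genotype results below, 3 of them as the genes called in the cerebellum and Th as the gene whose call depends on which animals are compared. Each is the 120 bases before the RefSeq start site, on the GRCm38.p6 build, read 5′ to 3′ on the gene's own strand. Capitals mark TGACGTCA, the cAMP response element, and TATAAA, the TATA box.
Th, minus strand, chr7:142899996-142900115: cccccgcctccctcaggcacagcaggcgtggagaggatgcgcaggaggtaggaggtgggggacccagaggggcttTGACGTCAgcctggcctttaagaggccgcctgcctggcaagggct
Tph2, minus strand, chr10:115185023-115185142: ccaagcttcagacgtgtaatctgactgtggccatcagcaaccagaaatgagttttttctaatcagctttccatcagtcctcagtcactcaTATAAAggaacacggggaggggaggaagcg
Gad2, plus strand, chr2:22622207-22622326: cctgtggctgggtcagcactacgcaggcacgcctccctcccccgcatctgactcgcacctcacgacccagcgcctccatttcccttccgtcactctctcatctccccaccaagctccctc
Slc32a1, plus strand, chr2:158610638-158610757: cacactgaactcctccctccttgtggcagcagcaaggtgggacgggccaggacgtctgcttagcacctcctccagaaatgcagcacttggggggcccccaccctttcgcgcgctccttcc

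RefSeq gives 12 promoters for the 9 genes, and the 250 bases before each start were searched on both strands. TGACGTCA was found in the Th promoter alone, 45 bases before the start, while 1.55% of 32851 mouse promoters hold it. TATAAA was found 30 bases before the start of Tph2 and, on the other strand, 141 bases before that of Gad1, and 12.4% of all promoters hold it. The same 250 bases had a GC content of 64.4% in Th, 64% in Gad2, 62.4% in Slc32a1 and 43.6% in Tph2, against a median of 52.4% over all promoters. The matches describe the sequence only, and binding was not measured here.

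The first comparison asked how transmitter use differs between the 2 tissues of control mice. All 9 genes differed, in a setting where 75.3% of the 14870 genes tested did (edgeR quasi-likelihood test, Benjamini-Hochberg adjusted p under 0.05). The test came from a joint fit of both tissues and all genotypes, without a block for the animal. Its fold differences and p-values therefore do not rest on the control libraries alone. In the control libraries alone all 9 also passed, with edgeR adjusted p from 8.34e-10 for Slc17a7 to 0.00283 for Gad2. The glutamate transporters and Tph2 were higher in the hippocampus, while the GABA and glycine genes and Th were higher in the cerebellum. The control libraries of the 2 tissues did not overlap for 8 of the 9 genes, Gad2 being the exception, against 51.7% of all genes tested.

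**Figure D1:**
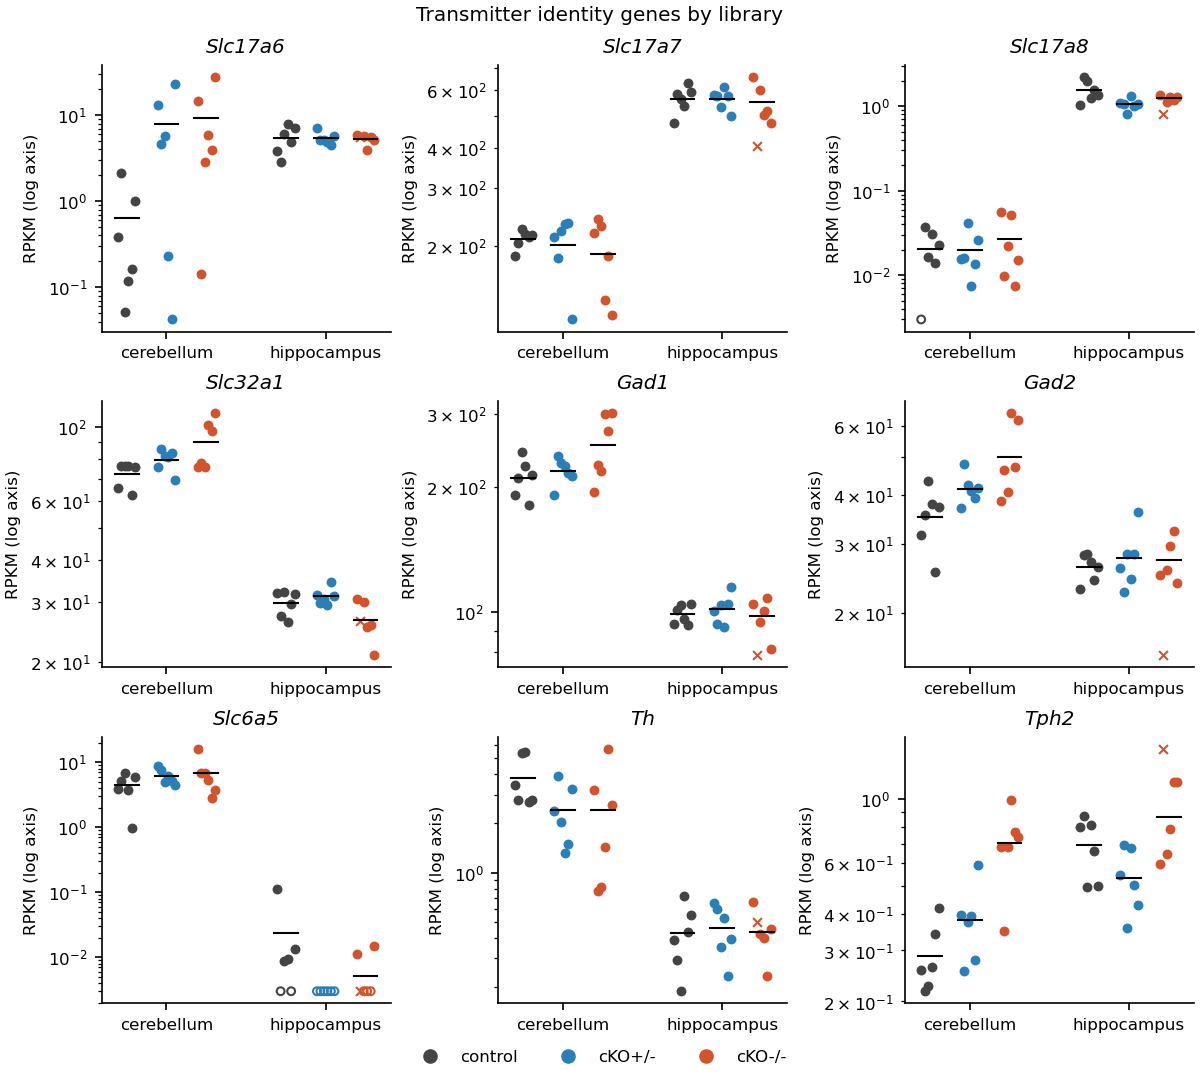
Level of each gene in each library, as RPKM on a log axis, with cerebellum on the left and hippocampus on the right of each panel. Points are libraries, bars are means over the libraries tested, crosses are the hippocampal library of Sample_1160, and open circles are libraries with a count of 0, drawn at a fixed low level. Slc17a6 ranges from 0.0423 to 27.55 RPKM among the cerebella but only from 2.85 to 8.01 RPKM among the hippocampi, and Slc6a5 is near 0 in every hippocampus.

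Among the glutamate transporters, Slc17a7 was the most abundant in both tissues. Its level was 186 to 224 RPKM in the control cerebella (mean 210 ± 13.4, SD, n = 6) and 475 to 632 RPKM in the control hippocampi (564 ± 53.9, SD, n = 6). In the fit it was 2.69-fold higher in the hippocampus (log2 difference 1.43 ± 0.13, SE, edgeR adjusted p = 3.09e-12). Slc17a8, a transporter found in some interneurons and monoamine neurons, had 0 to 5 counts in each control cerebellum and 164 to 396 in each control hippocampus. Its fitted log2 difference was 6.22 ± 0.30 (SE, edgeR adjusted p = 3.3e-19), a value that depends on the handling of the few cerebellar counts. Slc17a6 had a median of 1.17 CPM in the control cerebella, with 0.222 at the lowest and 9.29 at the highest. In the control hippocampi its median was 23.5 CPM, with a range of 12.3 to 34.6, so that the tissues did not overlap (log2 difference 2.50 ± 0.84, SE, edgeR adjusted p = 0.00834). The size of that difference depended on the fit, with 3.18 under a replicate block for the animal and 3.59 in the control libraries alone.

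The 3 GABA genes pointed the other way. Slc32a1 was 2.32-fold higher in the cerebellum in the joint fit (edgeR adjusted p = 6e-15, and 1.14e-08 in the control libraries alone). Its control levels were 72.3 ± 6.45 RPKM against 29.9 ± 2.63 (SD, n = 6 each). Gad1 was 2.07-fold higher in the same fit (edgeR adjusted p = 4.21e-14, and 2.46e-08 in the control libraries alone). It stood at 210 ± 22.3 RPKM in the control cerebella and 98.6 ± 5.09 RPKM in the control hippocampi (SD, n = 6 each). Gad2 was only 1.32-fold higher in that fit (edgeR adjusted p = 0.001), at 35.1 ± 6.12 and 26.1 ± 2.09 RPKM in controls (SD, n = 6 each). Its control ranges of 25.4 to 43.3 and 23 to 28.2 RPKM overlapped. The 2 GABA enzymes therefore stood in different proportion, with Gad1 at 6.06 ± 0.55 times Gad2 per length among control cerebella and 3.78 ± 0.20 times in the control hippocampi (SD, n = 6 each). Taken as sums over RPKM, the 2 Gad genes came to 1.17 ± 0.10 times the 3 glutamate transporters in the cerebellum and 0.22 ± 0.02 times in the hippocampus (SD, n = 6 each).

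Slc6a5 had the largest fitted difference among the 9 genes. It had 81 to 472 counts in the control cerebella, and in the control hippocampi 0 to 1 count in 5 libraries and 10 counts in that of Sample_1129, the library with cerebellar genes. The fitted log2 difference of -8.19 ± 0.59 (SE, edgeR adjusted p = 2.32e-14) rests in part on that library, and without Sample_1129 it was -9.70. Th was 7.88-fold higher in the cerebellum, at 4.76 to 9.66 CPM against 0.332 to 1.26 CPM (log2 difference -2.98 ± 0.35, SE, edgeR adjusted p = 3.21e-09). Tph2 was low in both tissues, at 0.57 to 1.1 CPM in the cerebella, 16 to 33 counts, and at 1.31 to 2.29 CPM in the hippocampi, 38 to 90 counts (2.31-fold higher in the hippocampus, edgeR adjusted p = 1.16e-05). The serotonin neuron genes Fev and Slc6a4, the serotonin transporter, stayed at 13 counts or fewer in every cerebellum and at 4 or fewer in every hippocampus.

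Within the control cerebella the order of mean levels per length was Gad1 and Slc17a7, then Slc32a1, Gad2, Slc6a5, Th, Slc17a6, Tph2 and Slc17a8. Gad1 and Slc17a7, Slc6a5 and Th, and Slc17a6 and Tph2 were neighbours whose ranges overlapped. In the control hippocampi the order was Slc17a7, Gad1, Slc32a1, Gad2, Slc17a6, Slc17a8, Tph2, Th and Slc6a5, with overlap between Slc32a1 and Gad2 and between Tph2 and Th.

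The genes around these 9 in each pathway were read from 2 lists. Of 22 genes for the synthesis, uptake and reception of glutamate, GABA and glycine, 21 were tested, 7 were higher in the hippocampus and 13 in the cerebellum, with a median log2 difference of -0.52 against -0.01 over all genes. The most abundant of them were Slc1a2, the glial glutamate transporter GLT-1, whose hippocampal mean of 3075 CPM compared with 826 CPM in cerebellum, and Slc1a3, the glutamate transporter GLAST of Bergmann glia, at 1700 CPM in the cerebellum and 707 in the hippocampus. Of 19 further monoamine genes, 11 were tested, 5 were higher in the hippocampus and 2 in the cerebellum. Qdpr, of tetrahydrobiopterin recycling, stood at 166 CPM in the cerebellum and at 182 CPM in the hippocampus, and its control ranges overlapped between the tissues.

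The second comparison asked whether these genes change with the number of Pogz alleles lost in the cerebellum. Of the 8 genes tested, 3 rose and none fell: Tph2, Gad2 and Slc32a1. Over all 14027 genes tested, 13.7% were called, 7.11% as higher and 6.55% as lower. The median log2 change per allele was 0.20 over the 8 genes and 0.00 over all genes. Slc17a8, with 0 to 7 counts in any cerebellum, was too low to test. None of the 9 genes separated the cKO-/- libraries from the controls without overlap, whereas 4.52% of genes did. The cerebellum is a mixture of cells, so more cells of a type and more RNA per cell cannot be told apart for any of these changes.

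**Figure D2:**
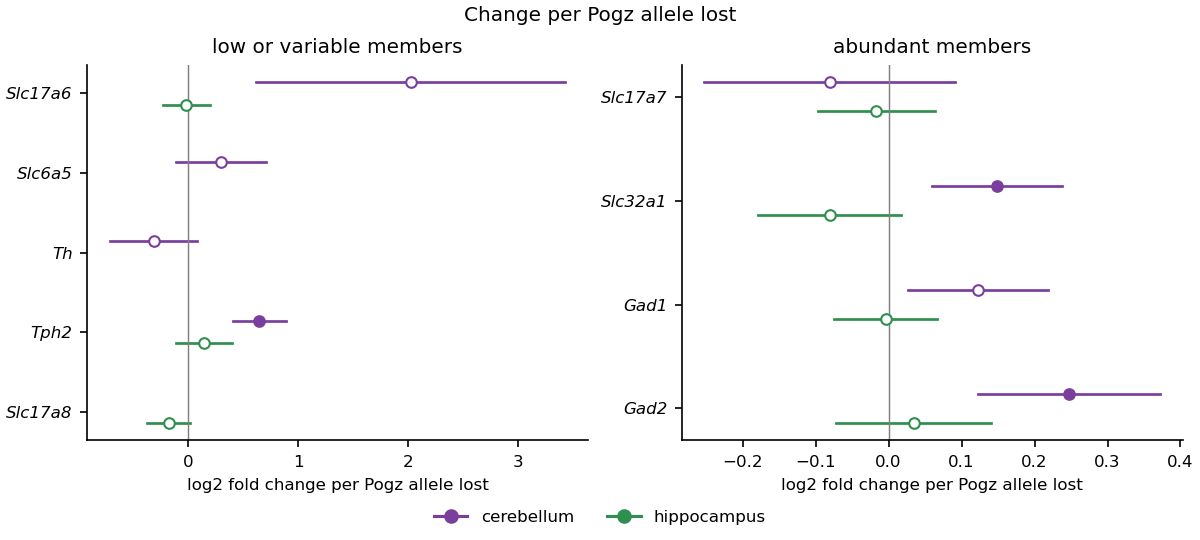
Estimated log2 fold change per Pogz allele lost with its 95% confidence interval, for cerebellum and hippocampus, with filled points where the adjusted p is under 0.05. Tph2, Gad2 and Slc32a1 are filled in the cerebellum, no gene is filled in the hippocampus, and the interval of Slc17a6 in the cerebellum is the widest, from 0.61 to 3.43.

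Tph2 changed most among the called genes. The control cerebella had a median of 0.683 CPM (0.57 to 1.1), the cKO+/- a median of 1.01 CPM (0.672 to 1.55) and the cKO-/- a median of 1.87 CPM (0.919 to 2.61). Of the 6 cKO-/- libraries, 5 lay above every control, and the other, from Sample_1160, lay within the control range. The fitted change was 1.56-fold per allele (log2 0.65 ± 0.12, SE, edgeR adjusted p = 0.00166). Genes were tested only if above 1 CPM in at least 6 libraries. Among the controls only Sample_1192 exceeded 1 CPM, so Tph2 entered the test mainly through the mutants, where it was higher. Without a filter on low counts the log2 change was 0.64 (edgeR adjusted p = 0.00217). These are 16 to 61 counts a library, while the serotonin neuron genes Fev and Slc6a4 had at most 7 counts each in any mutant cerebellum.

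Gad2 had a median of 204.5 CPM in the controls (143 to 244), 232 in cKO+/- (208 to 270) and 262 in cKO-/- (217 to 363). The highest values, 363 and 349 CPM, came from the cKO-/- Sample_1371 and Sample_1385, while the lowest cKO-/- values lay within the control range. Gad2 rose 1.19-fold per allele (log2 0.25 ± 0.06, SE, edgeR adjusted p = 0.0121). Slc32a1 had a median of 213.5 CPM in the controls (176 to 215), 228 in cKO+/- (195 to 241) and 246 in cKO-/- (213 to 308). It rose 1.11-fold per allele (log2 0.15 ± 0.04, SE, edgeR adjusted p = 0.0282), but was no longer called when any of Sample_1129, Sample_1190, Sample_1371, Sample_1379 or Sample_1385 was left out, with adjusted p up to 0.0829. Gad1 had medians of 684, 711 and 804 CPM in controls, cKO+/- and cKO-/- and did not pass the test (log2 0.12 ± 0.05, SE, edgeR adjusted p = 0.0805).

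Across the 18 cerebella the Pearson correlation of log2 CPM was 0.91 between Slc32a1 and Gad1, 0.89 between Slc32a1 and Gad2, and 0.91 between Gad1 and Gad2. These libraries also share their scaling and differences in cell makeup, so the values are a description. The ratio of Gad1 to Gad2 per length was 5.6 to 7.14 in the control cerebella, 4.94 to 5.52 in cKO+/- and 4.65 to 5.8 in cKO-/-. All cKO+/- ratios lay below all control ratios, by a small gap of 5.52 against 5.6 at the nearest, while 1 cKO-/- ratio lay among them. No baseline over other gene pairs is given, so this separation is a description only. Among the genes most like Gad1 in the cerebellum were Gria3, an AMPA receptor subunit, and Kit, a mark of molecular layer interneurons (r = 0.931 and 0.922). Those most like Gad2 were Gria3, Frmpd4 and Fam49a (r = 0.952, 0.95 and 0.946), and those most like Slc32a1 were Ajap1, Mras and Dirc2 (r = 0.926, 0.926 and 0.918, each over 18 libraries).

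Of 6 cerebellar interneuron and unipolar brush cell genes, 5 were tested and 2 rose, Sorcs3 (log2 0.22 ± 0.06 per allele, SE, edgeR adjusted p = 0.022) and Kit (log2 0.19 ± 0.06, SE, edgeR adjusted p = 0.0496). The summed level of the 6 was 324 to 507 CPM in controls and 404 to 635 CPM in cKO-/-. Their part in the GABA gene values was not tested. Such rises were not particular to this list. In the same fit 2 of 4 tested neocortex neuron genes and 2 of 3 tested hippocampus identity genes rose, against 7.11% of all genes. The 8 genes of cerebellar identity, among them Pcp2 of Purkinje cells and Gabra6 of granule cells, had 0 calls. Their sums were 7852 to 10290 CPM in controls, 5922 to 10300 CPM in cKO+/- and 6951 to 9946 CPM in cKO-/-. Gabra6 stood at 491 to 819 CPM in the 5 cerebella with genes of other regions, below the controls at 878 to 1012 CPM. In the 7 other mutants it ran from 637 to 1053 CPM. Pcp2 in those 5, at 209 to 467 CPM, overlapped the controls at 280 to 435 CPM. The part of these levels in the Slc17a7 and GABA gene values was not tested. Slc17a7, the transporter of the granule cells, had an estimate of -0.08 ± 0.08 (log2 per allele, SE, edgeR adjusted p = 0.538). Its lowest levels, 349, 361 and 400 CPM, were those of Sample_1433, Sample_1385 and Sample_1371, against 547.5 to 659.8 CPM in the controls. The genes most like it were Cbln1, the granule cell synapse organiser, Grm4 and Rbfox3 (r = 0.959, 0.954 and 0.948 over 18 libraries).

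Slc17a6 had the largest estimate of any member and did not pass the test. Its cerebellar median was 1.17 CPM in the controls (0.222 to 9.29), 22.4 in cKO+/- (0.183 to 100.5) and 21.1 in cKO-/- (0.612 to 119). No control exceeded 10 CPM, whereas 4 cKO+/- and 5 cKO-/- cerebella did, and the lowest mutants lay among the controls. The fitted change was 4.06-fold per allele (log2 2.02 ± 0.67, SE, edgeR adjusted p = 0.0511). This estimate sits beside the threshold: with genotype as a factor the adjusted p was 0.0269, under DESeq2 it was 0.00162, and over the 18 fits that each leave out an animal it ran from 0.0247 to 0.24.

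The 4 highest Slc17a6 levels came in cerebella that held genes of neighbouring regions. The highest cerebellar values, 119 and 100.5 CPM in Sample_1385 and Sample_1433, came with 425 and 263 counts of Shox2, 609 and 441 of Lhx9, 118 and 93 of Gata3 and 83 and 51 of Sox14. These are transcription factors known from thalamic and midbrain neurons, named here after their values were seen. They are not all limited to those regions, Lhx9 having a mean of 17.1 CPM in the control hippocampi. Control cerebella held at most 2 counts of Shox2, 13 of Lhx9, 0 of Gata3 and 1 of Sox14. Sample_936 and Sample_933, with 63.9 and 56.9 CPM of Slc17a6, held 111 and 25 counts of Hoxb3 and 44 and 15 of Hoxb2, genes of the hindbrain, against 0 to 1 in the controls. Sample_1379, with 16.9 CPM, held 54 counts of Shox2 and 22 of Gata3. Among the 7 other mutants Slc17a6 ran from 0.183 to 25.3 CPM, and 4 of them also exceeded every control, Sample_1371 at 25.3 CPM, Sample_1120 at 24.6, Sample_938 at 20.1 and Sample_1219 at 12.4. Of 8 thalamus genes, 3 (Lhx9, Gbx2 and Shox2) were under 1 CPM in every control cerebellum, a set chosen after its values were seen. Their sum was 0.0334 to 0.552 CPM in controls and 0.365 to 1.55 CPM in these 7. In that sum Sample_1371, Sample_1120, Sample_938 and Sample_1176 stood at 1.55, 1.28, 0.742 and 0.702 CPM, above every control, with the others inside the range of the controls. Lhx9 was 0.274 to 1.42 CPM in these 7 and 0.0334 to 0.449 CPM in controls. Shox2 was at most 0.146 CPM in these 7 and 0.069 CPM in controls. These 7 are therefore not shown to be free of such genes. Lhx9, which is not limited to other regions, does not show that they hold tissue of another region. Over all 18 cerebella the gene most like Slc17a6 was Meis2, a transcription factor gene, followed by Wipf1 and Spp1 (r = 0.976, 0.931 and 0.93). Meis2 had 0.111 to 2.45 CPM in controls, 0.305 to 5.39 CPM in the 7 other mutants and 5.26 to 32.1 CPM in the 5 with genes of other regions. Whether Slc17a6, Lhx9 and Meis2 came from cells of the cerebellum itself or of another region was not tested.

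**Figure D3:**
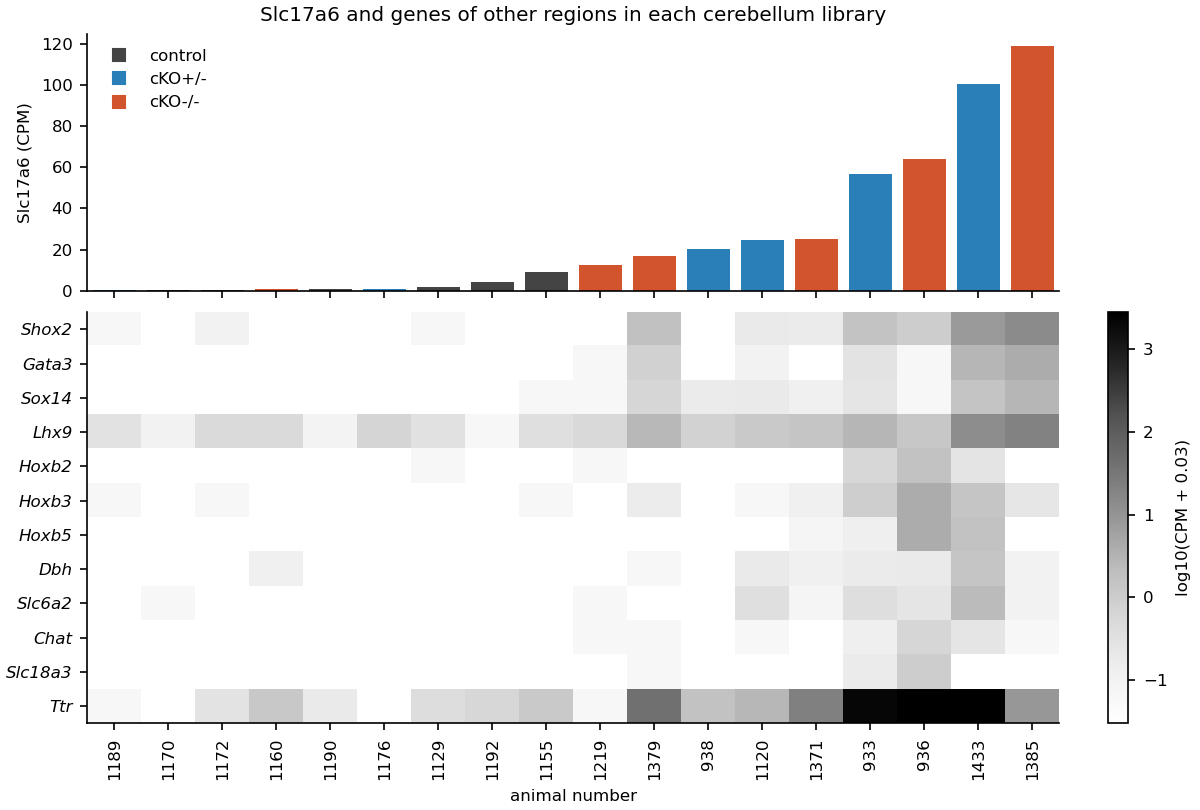
Upper panel, Slc17a6 in CPM in each cerebellar library, ordered by that level and coloured by genotype. Lower panel, genes of thalamus and midbrain (Shox2, Gata3, Sox14, Lhx9), hindbrain (Hoxb2, Hoxb3, Hoxb5), noradrenaline neurons (Dbh, Slc6a2), acetylcholine neurons (Chat, Slc18a3) and choroid plexus (Ttr) as log10(CPM + 0.03), darker being higher. The libraries with the 4 highest Slc17a6 levels, those of Sample_933, Sample_936, Sample_1433 and Sample_1385, are the darkest, and Sample_1379 is dark for Shox2, Lhx9 and Gata3 at a lower Slc17a6 level.

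The other members showed the same libraries in part. Slc6a5 had its highest value, 40.8 CPM, in the cKO-/- cerebellum of Sample_936, where Hoxb3 and Hoxb5 reached 111 and 109 counts and the acetylcholine genes Chat and Slc18a3 16 and 26, while the other 17 cerebella held 2.5 to 22.5 CPM. In the cKO+/- cerebellum of Sample_1433, Dbh, which makes noradrenaline, had 48 counts and Slc6a2, the noradrenaline transporter, 78, against 0 and at most 1 in the controls. Th in that library was 5.7 CPM, inside the control range of 4.76 to 9.66 CPM. The choroid plexus genes, with Ttr at their head, summed to 2289, 2923 and 3045 CPM in Sample_933, Sample_936 and Sample_1433 and to 19.9 to 77 CPM in the other 15 cerebella. Neither Slc6a5 (log2 0.30 ± 0.20 per allele, SE, edgeR adjusted p = 0.324) nor Th (log2 -0.32 ± 0.19, SE, edgeR adjusted p = 0.268) passed the test over all 18 cerebella. The genes most like Slc6a5 were Trpm3, Lgi2 and Erbb4 (r = 0.951, 0.94 and 0.932), and among those most like Th were Rom1 and Kif17 (r = 0.8 and 0.79, over 18 libraries).

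Leaving out the 5 cerebella with genes of other regions changed which members were called. The mutants kept still included cerebella above every control in the thalamus sum given above, which does not show tissue of another region by itself. Over the remaining 13, 522 of 14027 genes (3.72%) were called, and among the members it was Th alone, with an estimate of -0.89 (log2 per allele, edgeR adjusted p = 0.00548). Tph2 kept an estimate of 0.53 and Gad2 of 0.26, but with edgeR adjusted p = 0.0552 and 0.0559 they no longer passed, nor did Slc32a1 (0.12, adjusted p = 0.16). The Slc17a6 estimate went from 2.02 to 1.18 (edgeR adjusted p = 0.27).

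The 11 animals in the control number range are a subset of those 13, with the same 6 controls, so the next values are not independent of the last. There 277 genes (1.97%) were called, and Th was the member among them, with a log2 change of -1.14 per allele (edgeR adjusted p = 0.000385). Its levels in the 5 mutants of that range were 1.36, 1.44, 2.31, 2.65 and 3.59 CPM, all below the 6 controls at 4.76 to 9.66 CPM, a separation that 0.627% of genes showed in that direction. Tph2 (log2 0.40, edgeR adjusted p = 0.223), Gad2 (0.15, adjusted p = 0.268), Slc32a1 (0.06, adjusted p = 0.49) and Slc17a6 (0.85, adjusted p = 0.555) did not pass the test there, each with a smaller estimate than over all 18 cerebella. For Th, the 7 mutants outside the range ran from 2.51 to 10 CPM and covered the controls. Th lies on 31 to 98 counts in the 5 mutants and 146 to 280 in the controls. A covariate for the number range, fitted over all 18 cerebella, called 308 genes (2.2%), among them Th (log2 -0.89, edgeR adjusted p = 0.0087) and Tph2 (log2 0.53, edgeR adjusted p = 0.0497). The fits on fewer animals were added after the values were seen, and whether the number range marks a batch was not tested.

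**Figure D4:**
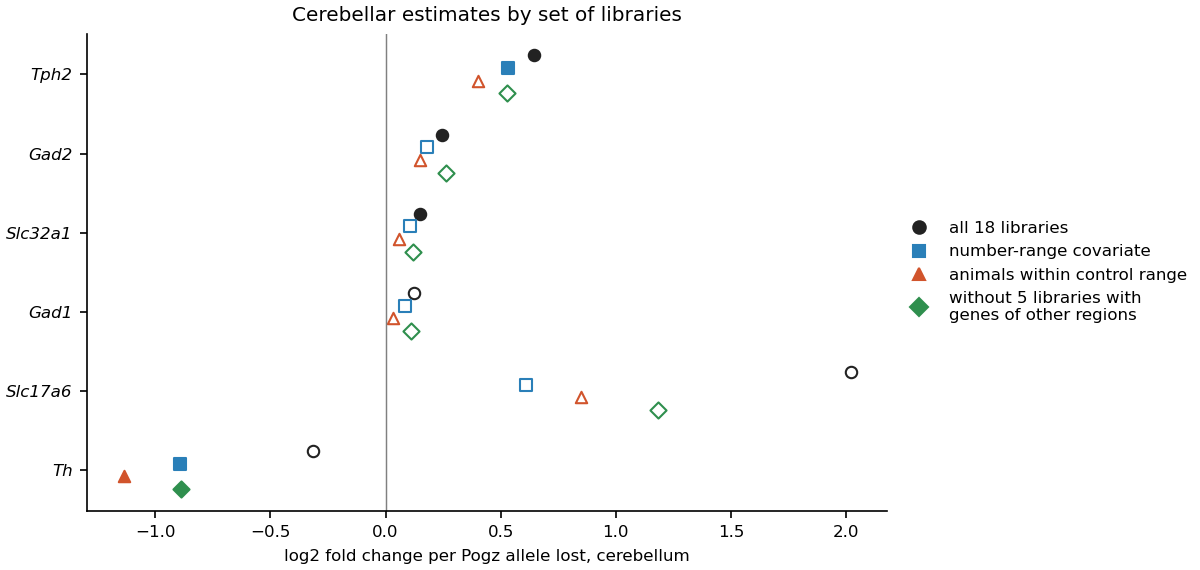
Estimated log2 fold change per Pogz allele lost in the cerebellum for 6 members, from all 18 libraries, with a covariate for the animal number range, from the animals within the control range only, and without the 5 libraries with genes of other regions. Filled marks have an adjusted p under 0.05. Th is filled in the last 3 fits but not in the first, Tph2 is filled in the first 2, and Gad2 and Slc32a1 only in the first.

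Of 20 tested genes for amino acid transmitter handling in the cerebellum, 8 rose and none fell, with a median log2 change of 0.10 per allele against 0.00 over all genes, of which 7.11% rose and 6.55% fell. The smallest adjusted p belonged to Slc6a9, the glial glycine transporter GlyT1 (log2 0.18 ± 0.05, SE, edgeR adjusted p = 0.0149), Slc1a6, the glutamate transporter EAAT4 of Purkinje cells (log2 0.22 ± 0.06, SE, edgeR adjusted p = 0.0162), and Slc6a12, the betaine and GABA transporter (log2 0.35 ± 0.09, SE, edgeR adjusted p = 0.018). Within the control number range, and with the covariate for it, the count was 0 higher and 0 lower, and without the 5 cerebella with genes of other regions it was 1 higher. It was 3 without Sample_1385, 4 without Sample_1190, and 5 without any of Sample_936, Sample_1129, Sample_1155 or Sample_1371. Of 11 tested monoamine genes, 3 rose and 1 fell. Maob, which breaks down monoamines, rose (log2 0.28 ± 0.06, SE, edgeR adjusted p = 0.00468), Qdpr rose (log2 0.23 ± 0.06, SE, edgeR adjusted p = 0.0268) and Hdc, the enzyme of histamine synthesis, fell by 0.26 (SE 0.05, log2 scale, edgeR adjusted p = 0.00486). Within the control number range, with the covariate for it, and without the 5 cerebella, no monoamine gene was called higher and 1 was called lower. The count of higher genes was 1 without any of Sample_1129, Sample_1192 or Sample_1385, and 2 without any of Sample_936, Sample_1155, Sample_1170, Sample_1371 or Sample_1379. Maob was also among the 3 genes most like Tph2 across the cerebella, with Gstk1 and BC026585 (r = 0.875, 0.878 and 0.87).

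The third comparison asked the same of the hippocampus. Of the 7 genes tested, none was called, in a tissue where 4.44% of 14339 genes were. No member separated cKO-/- from control libraries, as 3.71% of genes did. By DESeq2 the count was also 0, and no member had an unadjusted p under 0.05, the smallest being 0.0707 for Slc17a8. Slc6a5, with 0 to 10 counts, and Th, with 7 to 53, were too low to test. The widest intervals show what the data allow: for Tph2 a log2 change per allele between -0.11 and 0.39, for Slc17a6 between -0.24 and 0.20, and for Slc17a8 between -0.37 and 0.02. For the more abundant genes the interval was narrower, from -0.07 to 0.07 for Gad1 and from -0.10 to 0.06 for Slc17a7.

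Slc17a8 in the hippocampus had a median of 6.46 CPM in controls (4.67 to 9.8) and 4.78 CPM in cKO+/- (3.62 to 5.82), and 4.95, 5.29, 5.71, 5.72 and 6.1 CPM in the 5 cKO-/- libraries. The 3 groups overlapped. Tph2 had a median of 1.92 CPM in controls (1.31 to 2.29) and 1.38 CPM in cKO+/- (0.939 to 1.82), and 1.56, 1.69, 2.07, 3 and 3.01 CPM in cKO-/-. The cKO-/- Sample_1379 and Sample_1385 lay above every control, as did the library of Sample_1160 at 3.9 CPM, which was not tested. That library also had the lowest Gad2, 87.7 CPM, and the lowest Slc17a7, 404 RPKM, of all hippocampi.

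Slc32a1 in the hippocampus stood at 73.4 to 90.2 CPM in controls, 82.8 to 97 CPM in cKO+/- and 58.55, 71.2, 72.2, 84.45 and 86.15 CPM in cKO-/-. The lowest values were those of 3 cKO-/- libraries, the others lay within the control range, and the change did not pass the test (log2 -0.08 ± 0.05 per allele, SE, edgeR adjusted p = 0.346). Gad1 ran from 299.9 to 337.3 CPM in controls and from 262.8 to 348.4 CPM in cKO-/-, and Gad2 from 129.5 to 158.7 and from 133.7 to 181.9 CPM, so that the groups overlapped for both.

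Slc17a6 in the hippocampus ran from 12.3 to 34.6 CPM and its highest value was a control. That control, Sample_1172, held 363 counts of Pou4f1, 138 of Chat and 88 of Slc18a3, and the cKO+/- Sample_933, at 30.7 CPM of Slc17a6, held 216, 56 and 35. Pou4f1, Chat and Slc18a3 together are known from the medial habenula, and the other hippocampal libraries held at most 10, 6 and 4 counts of them. Control Sample_1192, at 30.8 CPM of Slc17a6, held only 3, 3 and 2. The genes most like Slc17a6 here were Nts, Tox and Vwc2l (r = 0.85, 0.832 and 0.821 over 17 libraries). Tph1, the tryptophan hydroxylase of the pineal gland, had 752 counts in the hippocampus of Sample_1385 and 89 in that of Sample_1219, against 4 to 31 in the rest, while Tph2 in those 2 libraries was 3.01 and 1.69 CPM.

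**Figure D5:**
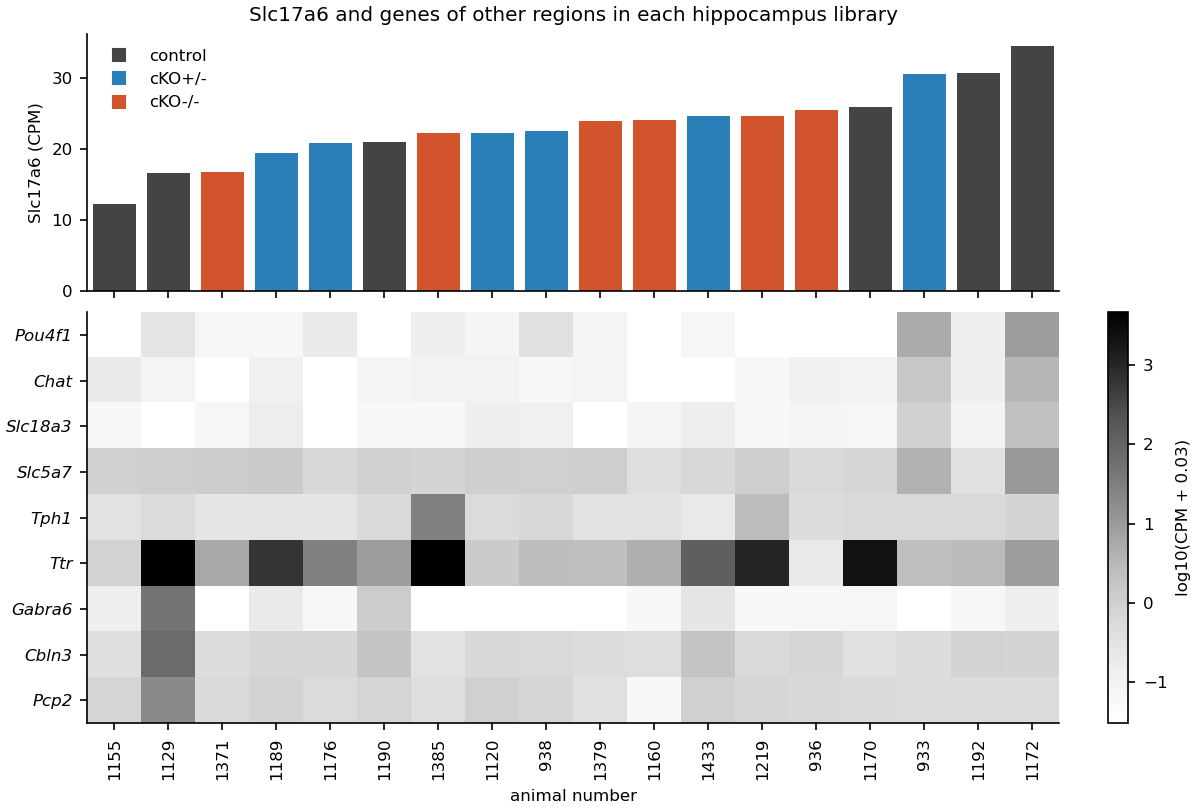
Upper panel, Slc17a6 in CPM in each hippocampal library, ordered by that level and coloured by genotype. Lower panel, genes of the habenula and acetylcholine neurons (Pou4f1, Chat, Slc18a3, Slc5a7), pineal gland (Tph1), choroid plexus (Ttr) and cerebellum (Gabra6, Cbln3, Pcp2) as log10(CPM + 0.03), darker being higher. Sample_1172 and Sample_933 are dark for Pou4f1 and Chat, Sample_1129 for the 3 cerebellar genes, Sample_1385 for Tph1, and Ttr is high in 5 libraries across genotypes.

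Without Sample_933, Sample_1172 and Sample_1129 the hippocampal count of called members stayed at 0, and the Slc17a6 estimate went from -0.02 to 0.01. Sample_1385, which that fit kept, had the highest summed level of 15 midbrain and hindbrain genes, 1.56 CPM against 0.189 to 1.25 CPM in the other 17 hippocampi, and the count was also 0 without it. Among the GABA genes the hippocampal correlation of log2 CPM was 0.79 between Gad1 and Gad2, 0.51 between Slc32a1 and Gad1 and 0.02 between Slc32a1 and Gad2 over 17 libraries. Gad2 was most like Cnr1, the cannabinoid receptor of a class of interneurons (r = 0.932), which was also among the genes most like Gad1 (r = 0.815). Slc17a7 was most like Zdhhc3 (r = 0.96), Slc17a8 most like Gpr12 (r = 0.847), Slc32a1 most like Cc2d1a (r = 0.918) and Tph2 most like Blmh (r = 0.879). The 8 interneuron genes, among them Sst, Pvalb and Vip, had 0 calls. Of the amino acid transmitter list, Glra2, a glycine receptor subunit, rose (log2 0.34 ± 0.06, SE, edgeR adjusted p = 0.00235) and Glul, the glutamine synthetase of astrocytes, fell by 0.13 (SE 0.03, log2 scale, edgeR adjusted p = 0.0196). Of the monoamine list, Ddc, which makes dopamine and serotonin from their precursors, rose (log2 0.40 ± 0.10, SE, edgeR adjusted p = 0.0247). Neither list had a call within the control number range or with the covariate for it, and the monoamine list had 0 without Sample_933, Sample_1172 and Sample_1129 together and without any of Sample_1155, Sample_1371 or Sample_1385. Without Sample_1190 or Sample_1379 the amino acid list had 1 gene higher and 0 lower.

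The last comparison asked whether the change per allele differed between the tissues. For no member did it pass the test, against 1.63% of 14870 genes. Slc32a1 came nearest, with a change per allele 0.24 lower in the hippocampus on the log2 scale (SE 0.07, edgeR adjusted p = 0.051), followed by Slc17a6 (hippocampal minus cerebellar log2 change -2.05 ± 0.67, SE, edgeR adjusted p = 0.114) and Tph2 (-0.52 ± 0.17, SE, edgeR adjusted p = 0.119). At an unadjusted level 5 members had p under 0.05, and DESeq2 called 2, Slc32a1 (adjusted p = 0.0195) and Slc17a6 (adjusted p = 0.0155). The shares of all genes passing in these ways are not given here, so both counts stand without a baseline. Without the libraries with genes of other regions 0.787% of genes were called, and Th was the member among them, its change per allele 1.04 higher in the hippocampus on the log2 scale (edgeR adjusted p = 0.0432). The cerebellar calls of Tph2, Gad2 and Slc32a1 are therefore not shown to be particular to that tissue.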

How the data were processed

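RNA of 36 libraries was sequenced by the authors, and the deposited tables give raw counts per gene for each tissue, with gene coordinates and exon length. The authors aligned reads and counted them per gene with STAR 250a, on the mm9 build by their account, whereas the coordinates in the tables match GRCm38. The strand setting of the counting is not given in the sources used here. Labels give each animal's genotype and number, and the same animal gave both tissues.

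Counts were analysed in R 4.3.3 with edgeR 4.0.16 (TMM scaling, quasi-likelihood F-test, Benjamini-Hochberg adjustment over all genes tested, threshold 0.05) after keeping genes above 1 CPM in at least 6 libraries. Each tissue was fitted with sex and the number of Pogz alleles lost. A joint fit gave the tissue contrast and its interaction with alleles. DESeq2 1.42.0 served as an alternative, and other scaling, filters, a factor for genotype, a covariate for animal number, left-out animals and a replicate block were also tried. The study's methods drop 1 RNA sample as an outlier without naming it. Here the hippocampus of Sample_1160 was left out, a choice made with earlier results known. The procedure was tested on simulated data. Depth ranged from 17609321 to 45544188 counts per library. Within a tissue, p-values measure spread between animals. In the joint fit, which has no block for the animal, they measure spread between libraries, and the 2 libraries of an animal count as separate.

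Levels use log2 CPM with a prior count of 2 for correlations. Named genes are the 9 members, up to 3 called genes of smallest adjusted p per list and tissue, the 2 most abundant genes per list in the tissue contrast, and the 3 genes most correlated with each member. Some genes that this rule names are not reported here. Members and lists were chosen with earlier results of these data known. Same-animal deviations in the 2 tissues had a median correlation of 0.162 over 17 pairs (-0.224 to 0.303), and animals pair the tissues by the labels.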

Additional observations from a re-analysis of the deposited data

Results flagged for a closer look

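Of 54 groups of libraries examined for a value far from the rest of its group, 2 held one, where chance alone gives about 1 in 20. Slc6a5 stood at 40.8 CPM in the cKO-/- cerebellum of Sample_936, against 7.18 to 17.5 CPM in the other 5 cKO-/- cerebella. That library also held 111 counts of Hoxb3 and 109 of Hoxb5, and their part in the Slc6a5 value was not tested. Slc6a5 stood at 0.285 CPM, or 10 counts, in the control hippocampus of Sample_1129, against 0 to 0.0346 CPM in the other 5 controls. That library also held 1773 counts of Gabra6, and its part in the value was not tested.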

How the results depend on the processing

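Of 982 alternative values, 915 were rated as unchanged. Of these, 821 were estimates for a single member that kept its direction and its side of the threshold. The other 94 were counts of called members that stayed equal or close to the main count, so a member could still cross the threshold there. In the cerebellum, 3 members were called, against 1 within the control number range and 1 without the libraries with genes of other regions, both times Th, against 2 with the number covariate (Th and Tph2), against 4 under DESeq2 and 4 with genotype as a factor, Slc17a6 among them, and against 2 to 5 when 1 animal was left out (5 without Sample_1160). For the difference between tissues, 0 members were called, against 2 under DESeq2, 1 under the bias-adjusted quasi-likelihood fit, 1 with the hippocampus of Sample_1160, 1 without the libraries with genes of other regions, and 0 to 2 when 1 animal was left out (2 without Sample_1160). The hippocampal count stayed at 0 to 0 and the tissue contrast at 9 to 9 in those fits. Over all genes the main cerebellar fit called 13.7%, against 1.97% within the range, 3.72% without the libraries with genes of other regions and 2.2% with the covariate. The shares under DESeq2, genotype as a factor, the bias-adjusted fit, with Sample_1160 and with 1 animal left out are not given here. Those counts of members stand without a baseline. With a replicate block for the animal, 9 members were called in the tissue contrast and 0 in the difference between tissues. It changed no member's call in these comparisons and was not fitted within a tissue. The sign of small estimates turned for Slc17a7 in the cerebellum (0.0540 with the number covariate, 0.0812 within the range), in the hippocampus (0.0190 and 0.0322) and in the difference between tissues (-0.0494, -0.0643, and -0.0318 without the libraries with genes of other regions). In the hippocampus it also turned for Gad2 (-0.0201 with Sample_1160), Slc32a1 (0.0359) and Tph2 (-0.17) within the range, and Slc17a6 (0.00896 without the libraries with genes of other regions). Leaving out 1 animal gave hippocampal estimates of -0.0295 to 0.0244 for Gad1, -0.0949 to 0.0490 for Slc17a6, -0.0424 to 0.00312 for Slc17a7 and -0.00715 to 0.0554 for Gad2. The cause of these changes was not tested. The low counts of Slc17a8 in the cerebellum and of Slc6a5 and Th in the hippocampus limit what can be said of them.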
